A study of Mus musculus with 6 samples.

Results

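The genes described here are 36 interferon response genes: the receptor chains for type I interferon, transcription factors that carry or start its signal, sensors of foreign nucleic acid, and antiviral proteins that interferon switches on. They were taken as every non-control probe on the array whose gene name was one of the 36, which gave 49 of the 39429 gene probes, and 36 of the 30222 names that the array file gives to its gene probes. Of these, 46 probes were tested, standing for 35 of the 36 genes, among 26645 tested probes and 20450 tested genes in all. The study compared Zscan5b knockout with wild type mouse embryonic stem cells, with 3 biological replicates of each genotype and 1 single-colour Agilent array per replicate. The arrays are called KO1 to KO3 and WT1 to WT3 after the replicate numbers in their labels. Both genotypes were cultured with leukaemia inhibitory factor over fibroblasts that mitomycin C had stopped from dividing, so each RNA sample could hold fibroblast RNA. The labels give no interferon treatment and no infection, and they do not say how the Zscan5b gene was disrupted, where the deletion lies or whether each knockout replicate was a separate clone.

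Type I interferons bind a receptor made of the IFNAR1 and IFNAR2 chains, and the signal reaches the nucleus through a complex that contains STAT2 and IRF9. That complex binds the interferon-stimulated response element, a pair of GAAA-type repeats in the promoters of its target genes, and many of those targets encode sensors and effectors that raise resistance to viruses. Mouse embryonic stem cells are known for a weak response to interferon and to double-stranded RNA, while fibroblasts respond strongly. Several members, among them the Ifitm genes, are known to be expressed in pluripotent cells without added interferon.

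Signals are given as log2 values relative to the 75th percentile of the array's own gene probes, so that a value of 0 stands for that percentile and a difference of 1 for a doubling. Differences between genotypes are knockout minus wild type, with the standard error from the limma model fitted across all tested probes and its Benjamini-Hochberg adjusted p, which counted as a call below 0.05. A gene with several probes is represented by its tested probe with the highest mean over the 6 arrays. In bulk RNA, fewer cells of a type and less RNA per cell cannot be told apart.

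The 75th percentile signal lay between 897 and 1028 intensity units on the knockout arrays and between 852 and 932 on the wild type arrays, and the probes well above background numbered 25360 to 27098 and 26473 to 27737. All knockout arrays lay on 1 slide with its own scan and all wild type arrays on another, so slide and genotype cannot be told apart. The Zscan5b probe (mm9 chr7:6190808-6190867) read -4.47, -5.17 and -5.13 on the knockout arrays, against -3.66, -4.03 and -3.12 on the wild type arrays. The highest knockout reading was under the lowest wild type reading, with a difference of -1.32 ± 0.29 that missed the limma threshold (adjusted p = 0.107). Without the position of the deletion, this probe does not check the labels fully.

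No interferon response gene differed between the genotypes in the limma test. Of the 46 member probes, 0 were called higher and 0 lower, beside 0.124% of all tested probes called higher and 0.342% called lower. At an unadjusted p below 0.05 the count was 1 of 46 member probes and 0 of the 35 representative probes, while 21.9% of all tested probes and 21.7% of all representative probes passed that looser limit. The median difference over the 35 genes was 0.10, with 21 genes positive and 14 negative and a range from -0.80 for Ddx58 to 0.82 for Rsad2. The sign of that median rested on single arrays: it was -0.37 without WT2, -0.060 without KO1 and -0.12 with array weights. Over all 20450 tested genes the median was -0.03 and 46.4% were positive. On the representative probes, the values of the 2 genotypes overlapped for 34 of the 35 genes. Across all tested genes, 12.5% had every knockout value above every wild type value and 16.5% had every knockout value below.

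The members' standard errors were wide. Their median was 0.46, from 0.09 for Trim25 to 1.06 for Usp18, against a median of 0.15 over all tested genes. A difference that misses the threshold with such errors does not show that the genotypes are alike: the 95% interval for Usp18 ran from -1.89 to 3.23.

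**Figure D1:**
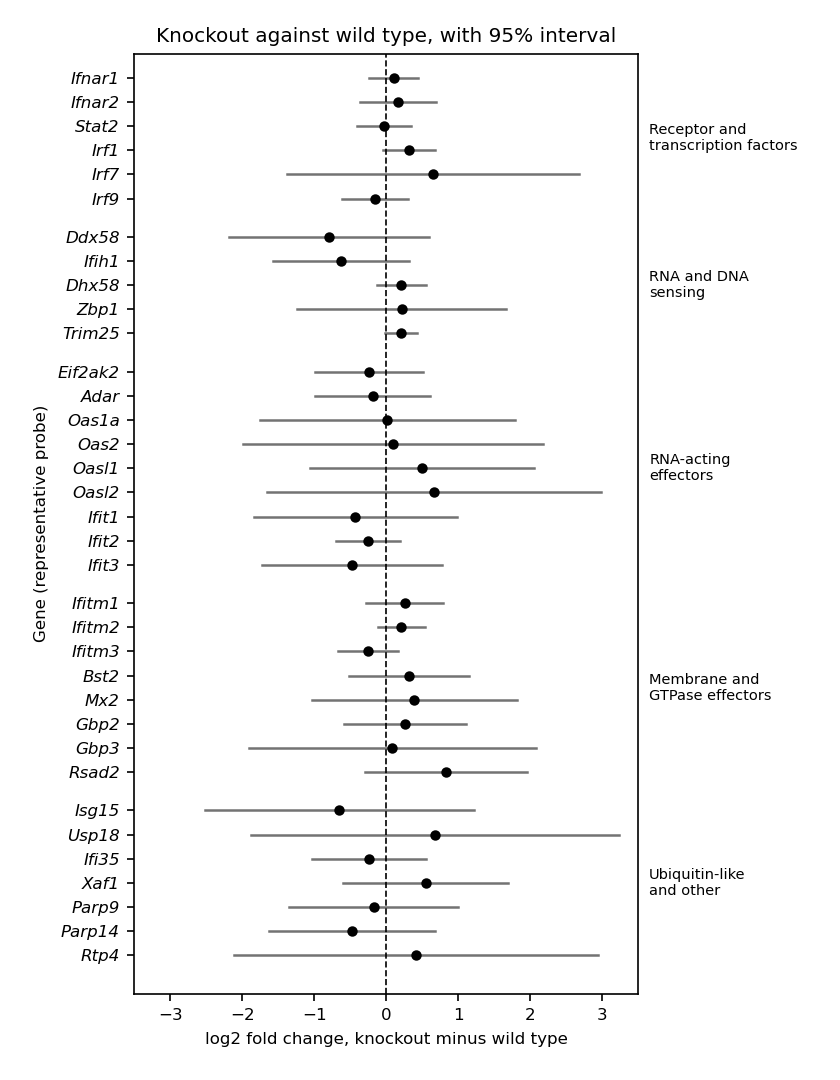
Difference between knockout and wild type cells for the 35 tested interferon response genes, grouped by role (log2 fold change on the horizontal axis, points with 95% intervals from the limma model, dashed line at 0). The intervals of all 35 genes include 0, and those of Usp18, Rtp4 and Oasl2 are the widest.

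What the members did show was a large spread between arrays of the same genotype. The range over the wild type arrays, highest minus lowest, had a median of 1.59 over the 35 genes and of 0.41 over all tested genes. It reached 1, a doubling, in 24 of 35 members and in 14.0% of all tested genes, and it reached 2 in 11 of 35 members and in 2.76% of all tested genes. Without WT2 the count of members at a range of 1 or more was 11 of 35, beside 5.86% of all tested genes. Without WT1 it was 17 of 35 beside 7.50%, and without WT3 it was 21 of 35 beside 9.02%.

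The knockout arrays spread less. Their range had a median of 0.77 over the members and 0.24 over all tested genes, and it reached 1 in 13 of 35 members and in 3.69% of all tested genes. For 33 of 35 members the range was wider over the wild type arrays than over the knockout arrays, the exceptions being Dhx58 and Trim25, while 72.8% of all tested genes had the wider range in the wild type. All 35 representative probes were well above background on all 6 arrays, and among all tested genes that met that condition 11.7% had a wild type range of 1 or more. Among the 14 members whose signal averaged above the 75th percentile, 6 had a wild type range of 1 or more and 3 a knockout range of 1 or more. The wild type share among all tested genes above that level was 3.99%, and the knockout share at that level was not computed.

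**Figure D2:**
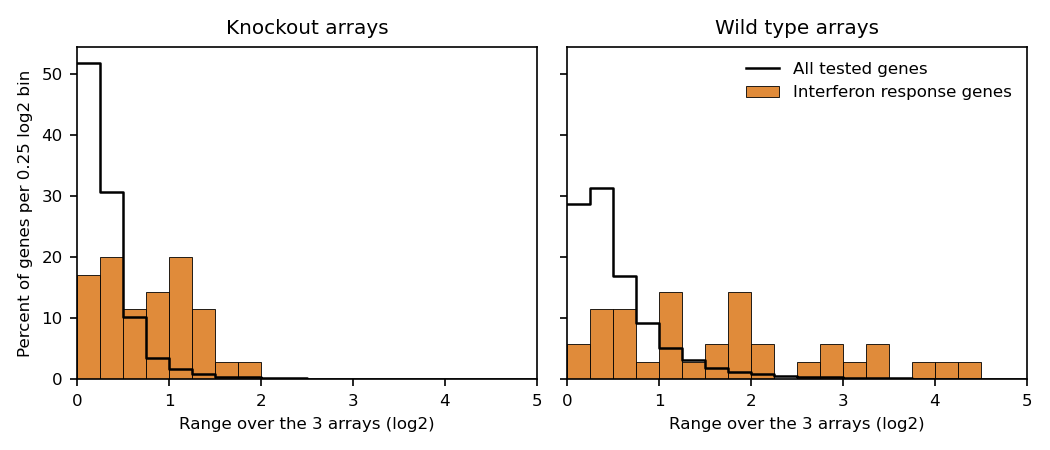
Range over the 3 arrays of a genotype (highest minus lowest log2 signal, horizontal axis) for the 35 interferon response genes (filled bars) and all 20450 tested genes (line), as the percent of genes in each 0.25-wide bin, with knockout arrays left and wild type arrays right. The members reach higher ranges than most genes in both genotypes, up to 1.80 on the knockout arrays and 4.30 on the wild type arrays.

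The members moved in a shared order across the arrays. Among the knockout arrays KO1 was highest for 28 of 35 members and KO3 lowest for 27, where 40.3% and 39.7% of all tested genes had those positions. Among the wild type arrays WT1 was highest for 22 members and WT2 lowest for 26, against 34.3% and 34.4% of all tested genes. WT1 lay above WT2 in 30 of 35 members (49.6% of all tested genes) and WT3 above WT2 in 26 (44.2% of all tested genes). The median gap between KO1 and KO3 was 0.77 over the members and 0.03 over all tested genes. Between WT1 and WT2 it was 1.16 over the members and close to 0 over all tested genes. With each gene centred on its mean over the 6 arrays, the members' medians were 0.24, 0.05 and -0.27 on KO1 to KO3 and 0.60, -0.79 and -0.00 on WT1 to WT3, so the wild type arrays held both the highest and the lowest median. These counts describe the arrays, with no test of the list, and members in neighbouring positions on a chromosome (3 Ifit genes within 73.6 kb on mm9 chromosome 19, for example) are not independent of each other.

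**Figure D3:**
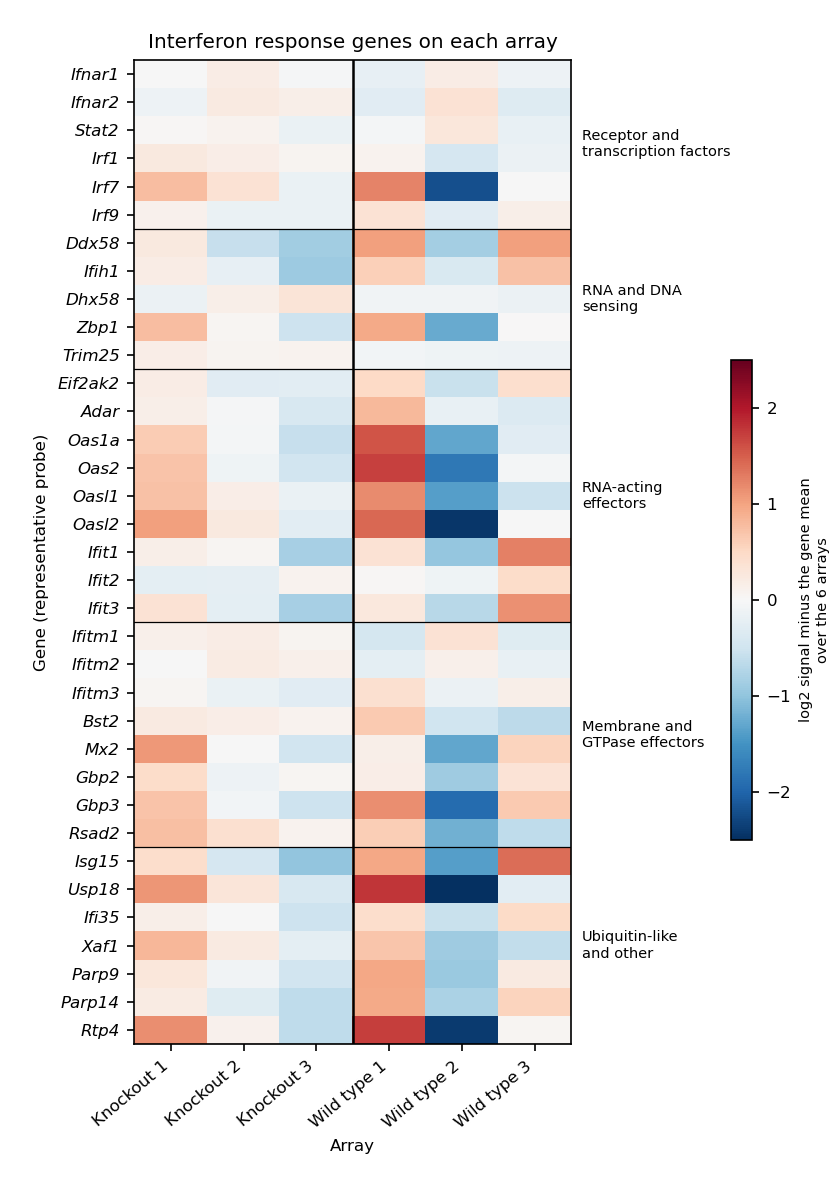
Each interferon response gene on each array, as log2 signal minus the gene's mean over the 6 arrays (colour scale), with knockout arrays left of wild type arrays and genes grouped by role. Most effector rows are high on WT1 and KO1 and low on WT2, while the receptor chains, Stat2 and the Ifitm genes stay near their means.

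The response element was looked for in the members' promoters. The members were chosen by name as interferon response genes, so the motif's share among them reflects that choice and not the arrays. RefSeq promoter windows of mouse build GRCm38.p6, which run from 250 bases before to 50 bases after a transcription start, were at hand for 27 of the 36 genes. The letters GAAA, any 2 bases and GAAA again (TTTC, any 2 bases and TTTC on the other strand), overlapping matches included, occurred in 14 of the 27 (51.9%), and in 3.99% of 27025 genes with a window and 3.44% of all 32851 windows. The letters TTCNNNGAA, a STAT-type palindrome, occurred in 10 of the 27 (37.0%) and in 9.55% of all genes with a window. The stretches below are printed 5′ to 3′ on the gene's own strand with the response element letters in capitals. Only genes with a match wholly before the start could be shown. Gbp3, Oas1a, Isg15, Ifit1 and Ifit3 had the widest wild type ranges among these genes. Stat2 and Ifitm2 had the narrowest, 0.47 and 0.36. Ddx58 also held the motif, with a range of 1.88, but gave no such stretch.
Gbp3 (chr3:142559969-142560043, plus strand): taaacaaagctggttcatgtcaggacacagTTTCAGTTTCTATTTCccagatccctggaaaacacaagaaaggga
Oas1a (chr5:120907526-120907575, minus strand): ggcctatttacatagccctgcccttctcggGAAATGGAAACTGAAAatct
Isg15 (chr4:156200845-156200926, minus strand): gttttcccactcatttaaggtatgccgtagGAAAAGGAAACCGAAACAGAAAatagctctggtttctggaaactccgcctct
Ifit1 (chr19:34640755-34640843, plus strand): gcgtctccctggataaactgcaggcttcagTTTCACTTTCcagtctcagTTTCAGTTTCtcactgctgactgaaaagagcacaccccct
Ifit3 (chr19:34583343-34583446, plus strand): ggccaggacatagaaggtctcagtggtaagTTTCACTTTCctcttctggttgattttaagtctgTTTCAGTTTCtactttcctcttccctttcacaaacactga
Stat2 (chr10:128270248-128270315, plus strand): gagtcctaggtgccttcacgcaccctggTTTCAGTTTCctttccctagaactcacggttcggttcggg
Ifitm2 (chr7:140955968-140956037, minus strand): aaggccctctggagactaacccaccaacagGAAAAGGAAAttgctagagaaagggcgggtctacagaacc

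In Isg15 the capitals hold 3 overlapping matches and end 56 bases before the annotated start, and in Oas1a they hold 2 and end 4 bases before it. The wild type range had a median of 1.56 in the 14 members with the motif, 11 of them at 1 or more, and of 0.80 in the 13 without it, 6 of them at 1 or more. This comparison leaves out the genes without a window: Dhx58, Zbp1, Oas2, Mx1, Mx2, Usp18, Parp9, Parp14 and Rtp4. Mx1 was not tested, and the ranges of the others ran from 0.06 for Dhx58 to 4.30 for Usp18. Usp18, Rtp4 and Oas2 were among the 6 members with the widest wild type range. Over all tested genes with a window, the range reached 1 in 22.6% of 421 genes with the motif and 13.5% of 10944 without. The motif and the range did not run in step gene by gene: Oasl2 and Irf7, with ranges of 3.88 and 3.44, held no such letters in their windows. A match is a run of letters and not a measured binding site.

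The receptor chains and most of the transcription factors varied less across the arrays than most other members. Of these 6 genes only Irf7 had a wild type range of 1 or more. The group's median range was 0.27 over the knockout arrays and 0.57 over the wild type arrays, beside 0.24 and 0.41 over all tested genes. Ifnar1 differed by 0.10 ± 0.14, Ifnar2 by 0.16 ± 0.22, Stat2 by -0.03 ± 0.15 and Irf9 by -0.16 ± 0.19. Ifnar1 had 2 further probes, with differences of -0.30 ± 0.12 and -0.42 ± 0.17, both negative where the representative probe was positive, and on each of these every knockout array was under every wild type array. The lower of them was the only member probe with an unadjusted p below 0.05 (limma adjusted p = 0.227). The representative probe lies at mm9 chr16:91510673-91510732, and the others at mm9 chr16:91506635-91506693 and mm9 chr16:91503764-91505350.

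Irf1, a transcription factor that interferon-gamma induces strongly, read 2.64, 2.56 and 2.47 on the knockout arrays, against 2.49, 1.99 and 2.25 on the wild type arrays. Its knockout mean was 0.32 ± 0.15 higher, a difference that was not called (limma adjusted p = 0.268), and KO3 fell just inside the wild type values. A second Irf1 probe was well above background on WT1 alone and was not tested.

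Irf7 (mm9 chr7:148450664-148451014), the factor that amplifies interferon production, was the exception in the group. It read -3.32, -3.73 and -4.27 on the knockout arrays, against -2.86, -6.29 and -4.10 on the wild type arrays. The wild type values bracketed all the knockout values, with 10.8-fold between WT1 and WT2 and 1.93-fold between the highest and lowest knockout array. In scanner units WT1 read 117 and WT2 only 10.9, a dim reading, so the size of that span is uncertain. The difference between genotypes was 0.64 ± 0.84 (limma adjusted p = 0.664), and without WT2 it turned to -0.30.

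Among the sensors, Ddx58, Ifih1 and the nucleic acid sensor Zbp1 had ranges of 1 or more in both genotypes, while Dhx58 and Trim25 stayed below 0.5 in both. The median range of the 5 genes was 1.09 over the knockout arrays and 1.11 over the wild type arrays. Ddx58 (mm9 chr4:40151893-40151952), which encodes the RNA sensor RIG-I, read 1.75, 0.92 and 0.64 on the knockout arrays, against 2.53, 0.66 and 2.53 on the wild type arrays. WT1 and WT3 stood above all knockout arrays and WT2 stood beside KO3, the lowest of them, so the difference of -0.80 ± 0.57, the most negative among the members, was not called (limma adjusted p = 0.426). Ifih1, which encodes the sensor MDA5, read -3.98, -4.37 and -5.07 on the knockout arrays, against -3.56, -4.55 and -3.44 on the wild type arrays. Its pattern was like that of Ddx58, with WT2 inside the knockout values and a difference of -0.62 ± 0.39 (limma adjusted p = 0.372).

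Dhx58, the gene for LGP2, a helicase that tunes the other sensors, read -3.11, -2.81 and -2.64 on the knockout arrays, against -3.04, -3.04 and -3.10 on the wild type arrays. It ran opposite to most members in the knockout, with KO3 highest and KO1 lowest, and its difference of 0.21 ± 0.14 was not called (limma adjusted p = 0.400). Zbp1 differed by 0.21 ± 0.60 on its representative probe and by -0.13 ± 0.52 on its other probe, with WT1 highest and WT2 lowest of the wild type arrays on both.

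Trim25 (mm9 chr11:88874956-88881181), a ubiquitin ligase that acts on RIG-I, was the single member whose groups did not overlap on the representative probe. Its signal there rests on a probe that many genes could bind. The probe read 5.26, 5.17 and 5.20 on the knockout arrays, against 5.04, 4.99 and 4.98 on the wild type arrays. The knockout mean was 0.20 ± 0.09 higher, the smallest adjusted p among the representative probes (limma adjusted p = 0.249) and not a call. Bases 31 to 60 of this probe are a TG repeat, and it shares a run of at least 20 bases, on either strand, with 76 other probes of the array. The other Trim25 probe, whose bases 31 to 60 are printed for comparison, shares none.
Trim25 repeat probe: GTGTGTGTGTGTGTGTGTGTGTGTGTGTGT
Trim25 other probe: tctttatttgactgcttctgattctttttc

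That other probe read 4.79, 4.64 and 4.43 on the knockout arrays, against 4.70, 4.62 and 4.31 on the wild type arrays. Its groups overlapped, with a difference of 0.07 ± 0.15, so the separation was seen on the repeat probe only.

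The effectors that act on RNA spread most between the wild type arrays. The group's median range was 0.97 over the knockout arrays and 2.23 over the wild type arrays, and 8 of its 9 genes had a wild type range of 1 or more, Ifit2 being the exception. WT1 lay above WT2 in all 9, and KO1 was highest of the knockout arrays in 8. The oligoadenylate synthetase family, whose active members make a messenger that turns on RNA cleavage, showed it most. Oas2 (mm9 chr5:121180343-121180402) read 0.01, -0.83 and -1.19 on the knockout arrays, against 0.99, -2.505 and -0.76 on the wild type arrays. Oasl2 (mm9 chr5:115362168-115362227) read -0.08, -0.86 and -1.36 on the knockout arrays, against 0.34, -3.53 and -1.11 on the wild type arrays. In both genes WT1 was the highest of the 6 arrays and WT2 the lowest by more than 1 log2 unit. The wild type arrays spanned 11.3-fold for Oas2 and 14.7-fold for Oasl2, while the knockout arrays spanned 2.29-fold and 2.44-fold. The differences between genotypes were 0.09 ± 0.86 for Oas2 and 0.66 ± 0.96 for Oasl2, both under 1 standard error.

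Oas1a and Oasl1 followed the same order of wild type arrays, with wild type ranges of 2.86 and 2.55 and differences of 0.01 ± 0.73 and 0.49 ± 0.64. Oas1a and Oas2 lie within 168 kb of each other on mm9 chromosome 5, and Oasl1 and Oasl2 within 25.8 kb on the same chromosome. The Ifit genes, whose proteins bind foreign RNA, took another order, with WT3 highest in all 3 of them. Ifit1 read -3.43, -3.52 and -4.41 on the knockout arrays, against -3.21, -4.54 and -2.32 on the wild type arrays. Its wild type arrays spanned 4.68-fold, and the difference was -0.43 ± 0.58. Ifit2 read -5.10, -5.07 and -4.75 on the knockout arrays, against -4.83, -4.95 and -4.39 on the wild type arrays. Its wild type range was only 0.56, KO3 was the highest knockout array, and the difference of -0.25 ± 0.18 was not called (limma adjusted p = 0.436). Ifit3 differed by -0.48 ± 0.51.

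Eif2ak2, the gene for the RNA-activated kinase PKR, differed by -0.24 ± 0.31 with a wild type range of 1.05. Adar, which edits adenosine in RNA, differed by -0.19 ± 0.33 on its representative probe and by 0.16 ± 0.14 on another probe. WT1 was the highest array on both Adar probes, and the wild type range was 1.16 on the representative probe and 0.47 on the other.

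**Figure D4:**
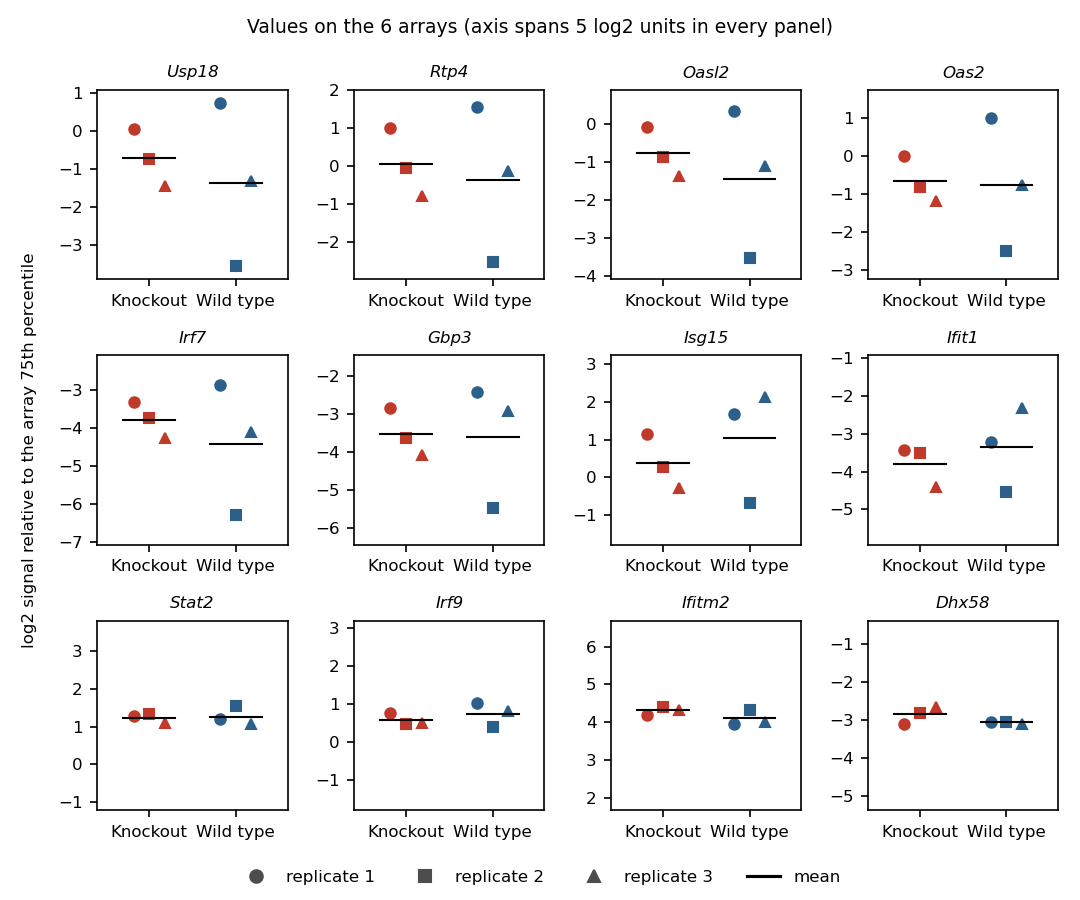
log2 signal relative to the array's 75th percentile for 12 interferon response genes, with knockout arrays left and wild type arrays right in each panel, points for single arrays (shape gives the replicate number), lines for group means and the same 5 log2 units on every axis. In the upper rows the wild type points spread more widely than the knockout points, and Stat2, Irf9, Ifitm2 and Dhx58 in the bottom row have ranges of at most 0.64 in both genotypes.

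Among the membrane proteins and GTPases, the Ifitm genes had wild type ranges below 1, the widest being 0.80 for Ifitm1. Gbp2, Gbp3, Mx2, Rsad2 and Bst2 had wild type ranges above 1. The group's 8 tested genes had a median range of 0.46 over the knockout arrays and 1.28 over the wild type arrays, and 7 of 8 differences were positive, none of them called, where 46.4% of all tested genes were positive. Gbp2, Gbp3 and Mx2 turned negative with array weights (-0.073, -0.47 and -0.039) and without WT2 (-0.13, -0.86 and -0.16). Ifitm1, Ifitm2 and Ifitm3, which block the entry of viruses at membranes, lie within 54.8 kb on mm9 chromosome 7. Ifitm1 read 3.77, 3.81 and 3.70 on the knockout arrays, against 3.20, 4.001 and 3.33 on the wild type arrays. Here WT2 was the highest array and not the lowest, and the difference was 0.25 ± 0.22 (limma adjusted p = 0.507). Without WT2 the knockout was higher by 0.50 ± 0.10 and the probe was called (limma adjusted p = 0.0473), when 1409 of 26647 probes were called higher and 1148 lower. A second Ifitm1 probe, which the array file places on chromosome 8, shares a run of 54 bases with the representative probe and differed by 0.21 ± 0.22.

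Ifitm2 read 4.19, 4.41 and 4.34 on the knockout arrays, against 3.97, 4.33 and 4.02 on the wild type arrays. WT2 again stood with the knockout arrays, and the difference was 0.21 ± 0.14 (limma adjusted p = 0.385). Ifitm3 read 4.41, 4.20 and 4.07 on the knockout arrays, against 4.75, 4.21 and 4.51 on the wild type arrays. It was the only gene of its group with a negative difference, -0.26 ± 0.17 (limma adjusted p = 0.392), and in it KO1 and WT1 were the highest arrays of their genotypes, as in most members.

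Bst2, the gene for tetherin, which holds new virus particles at the cell surface, read 4.39, 4.33 and 4.25 on the knockout arrays, against 4.83, 3.67 and 3.52 on the wild type arrays. The knockout arrays lay between WT1 and the other wild type arrays, with a difference of 0.32 ± 0.34. Rsad2 (mm9 chr12:27127859-27127918), which encodes the antiviral enzyme viperin, read -3.57, -3.93 and -4.24 on the knockout arrays, against -3.72, -5.53 and -4.96 on the wild type arrays. It had the most positive difference of any member, 0.82 ± 0.46 (limma adjusted p = 0.333), with WT1 among the knockout values and the other wild type arrays below them.

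Gbp3 (mm9 chr3:142236032-142236091), a guanylate-binding GTPase, read -2.85, -3.64 and -4.07 on the knockout arrays, against -2.41, -5.49 and -2.92 on the wild type arrays. The wild type arrays spanned 8.48-fold and the knockout arrays 2.33-fold, and the difference was 0.08 ± 0.82. Gbp2, within 64.7 kb of Gbp3 on mm9 chromosome 3, differed by 0.25 ± 0.35 with a wild type range of 1.24. Mx2 differed by 0.39 ± 0.59 with a wild type range of 1.84. The Mx1 probe was well above background on 0 of the 6 arrays and was not tested, so Mx1 has no difference here.

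The ubiquitin-like proteins and the remaining effectors all spread. Each of these 7 genes had a wild type range of 1 or more, with a median of 1.09 over the knockout arrays and 1.90 over the wild type arrays. On the representative probes of all 7, WT2 was the lowest wild type array, KO1 the highest knockout array and KO3 the lowest. Usp18 (mm9 chr6:121220874-121220933), a protease that takes the ubiquitin-like protein ISG15 off other proteins and restrains the interferon receptor, had the widest wild type range of all members. It read 0.05, -0.74 and -1.45 on the knockout arrays, against 0.73, -3.57 and -1.32 on the wild type arrays. In scanner units before scaling these were 1063, 537 and 329 in the knockout, against 1416, 71.9 and 374 in the wild type. The wild type arrays spanned 19.7-fold and the knockout arrays 2.82-fold, and the difference was 0.67 ± 1.06 (limma adjusted p = 0.723), which turned to -0.42 without WT2.

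Rtp4 (mm9 chr16:23613668-23613727), an interferon-induced receptor transporter protein, read 1.00, -0.05 and -0.80 on the knockout arrays, against 1.56, -2.54 and -0.11 on the wild type arrays. Its arrays had the same order as those of Usp18, spanned 3.48-fold in the knockout and 17.2-fold in the wild type, and gave a difference of 0.42 ± 1.04. Isg15 itself read 1.15, 0.29 and -0.27 on the knockout arrays, against 1.67, -0.66 and 2.11 on the wild type arrays. WT1 and WT3 were above all knockout arrays and WT2 below them, and the difference was -0.65 ± 0.77. This Isg15 probe shares a run of at least 20 bases with a probe for Gm9706, and the other Isg15 probe, which shares none, had the same order of wild type arrays and a difference of -0.33 ± 0.79.

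Xaf1, a factor that counters inhibitors of apoptosis, read -0.46, -1.07 and -1.55 on the knockout arrays, against -0.61, -2.19 and -1.92 on the wild type arrays. Its difference of 0.54 ± 0.47 was not called (limma adjusted p = 0.509). Its other probe, well above background on 1 knockout and 2 wild type arrays, gave -1.84 ± 0.88, and the mean of both probes gave -0.65. Parp14, an ADP-ribosyltransferase, read -0.92, -1.44 and -1.77 on the knockout arrays, against -0.18, -1.93 and -0.58 on the wild type arrays. WT1 and WT3 exceeded all knockout arrays and WT2 fell below them, with a difference of -0.48 ± 0.47 (limma adjusted p = 0.565). Parp9, which lies within 140 kb of Parp14 on mm9 chromosome 16, differed by -0.17 ± 0.48 and Ifi35, an interferon-induced leucine zipper protein, by -0.25 ± 0.33.

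Genes of the wider pathway were read from lists made with earlier results of these data known. Interferon genes themselves gave little signal: of 16 names, 11 were on the array and 6 were tested, with a median difference of 0.00 and none called, at p below 0.05 before or after adjustment. Ifnb1, the gene for interferon beta, was well above background on 1 array at most, and Ifna4, Ifne and Ifng on none. Of the tested ligands with the smallest p, Ifna2 differed by -0.28 ± 0.19, Ifna12 by 0.11 ± 0.13, Ifna5 by 0.04 ± 0.14 and Ifna1 by -0.02 ± 0.12. These alpha genes are close copies, and signal could be shared between their probes.

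Of 27 tested genes for other sensing and signalling steps, none was called on its representative probe, and 3 were higher and 3 lower at an unadjusted p below 0.05 (21.7% of all representative probes). Irf3, the factor that first switches on interferon genes, averaged 2.46 ± 0.05 in knockout cells and 2.89 ± 0.04 in wild type cells (SD, n = 3 each), a difference of -0.43 ± 0.09 (limma adjusted p = 0.102). Socs3, a feedback inhibitor of cytokine signalling, differed by 0.70 ± 0.18 and Tyk2, a kinase bound to the interferon receptor, by 0.51 ± 0.14. Tmem173, the gene for the DNA-sensing adaptor STING, differed by -0.67 ± 0.21. These 4 genes were named for the smallest p in the list, and none of them was called. Their knockout values did not overlap the wild type values. In the whole list 2 of 27 genes had every knockout value above every wild type value (12.5% of all tested genes). In 3 of 27 every knockout value was below (16.5%). In this list 7 of 27 genes had a wild type range of 1 or more (14.0% of all tested genes), and WT1 was above WT2 in 7 (49.6%).

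The 72 tested genes among 88 names of other interferon-stimulated genes showed the array order of the members in a milder form. Their median difference was 0.06, and none was called on its representative probe. At an unadjusted p below 0.05, 4 were higher and 7 lower, beside 21.7% of all representative probes in either direction. The wild type range was 1 or more in 34 of the 72 (14.0% of all tested genes). WT2 was the lowest wild type array in 47 (34.4% of all tested genes) and WT1 was above WT2 in 60 (49.6%). KO1 was the highest knockout array in 46 (40.3%). The list's centred medians were 0.13, -0.01 and -0.14 on KO1 to KO3, and 0.22, -0.27 and -0.08 on WT1 to WT3. Irgm1, an immunity-related GTPase chosen after its values were seen for its wide range, read 0.93, -0.16 and -0.85 on the knockout arrays, against 2.48, -2.81 and -0.17 on the wild type arrays.

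By smallest p the list gave Isg20l2 at -0.58 ± 0.11, Nlrc5, a regulator of MHC class I genes, at -0.68 ± 0.15, Oas3 at 0.87 ± 0.23 and Trim14 at 1.44 ± 0.51, with limma adjusted p between 0.0817 and 0.191. Another Trim14 probe ran the other way: it was well above background on all 3 wild type arrays and on 0 knockout arrays, with means of -7.25 in the knockout and -5.96 in the wild type. Set against the dimmest signal still well above background on each knockout array, it was at least 1.17-fold lower in the knockout (limma adjusted p = 0.0895, not a call).

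Only 1 probe in the list was called, the dimmer of the Gbp5 probes. It read -6.21, -6.04 and -5.63 on the knockout arrays, against -4.24, -4.21 and -4.22 on the wild type arrays, with a difference of -1.73 ± 0.16 (limma adjusted p = 0.0374). It was well above background on 1 of 3 knockout arrays and on all 3 wild type arrays, so it passed the filter mainly through the group where it was high and the size of its difference rests on readings near background. The representative Gbp5 probe, which was well above background on all 6 arrays, differed by 0.29 ± 0.19 and was not called.

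Marker lists for cells that could be in the culture were read on the same arrays. Of 30 feeder fibroblast markers 29 were tested, and 28 had a negative difference, where 46.4% of all tested genes were positive. Their median difference was -0.85, and 0 were called after adjustment. At an unadjusted p below 0.05, 7 were lower and 0 higher, beside 21.7% of all representative probes in either direction. The feeder markers' centred medians were -0.76, -0.14 and -0.48 on KO1 to KO3, and -0.73, 1.02 and 0.86 on WT1 to WT3. WT1, where the members were highest, was thus low for feeder markers, and WT2, where the members were lowest, was high. The summed level of the feeder markers, in multiples of the 75th percentile signal, was 193 to 239 on the knockout arrays and 206 to 362 on the wild type arrays, and that of the members was 132 to 156 and 121 to 175. Most of the members' sum came from the membrane and GTPase group (69.4 to 74.6 and 61.0 to 80.6) and the sensors (38.4 to 42.6 and 33.7 to 39.6). The sensors include the Trim25 repeat probe, so the sum says little about the dimmer members. All 15 pluripotent cell markers were tested, with a median difference of 0.22 and centred medians of 0.04, 0.10 and 0.08 on the knockout arrays against 0.05, 0.11 and -0.36 on the wild type arrays. Their summed level was 229 to 251 on the knockout arrays and 198 to 252 on the wild type arrays. Of 16 immune cell marker names 13 were tested, with a median difference of 0.05. Their centred medians were -0.00, 0.09 and -0.19 on KO1 to KO3, and 0.13, -0.16 and -0.01 on WT1 to WT3, so that WT1 was highest and WT2 lowest of the wild type arrays, as for the members. WT1 was above WT2 in 10 of these 13 genes (49.6% of all tested genes) and WT2 was the lowest wild type array in 8 (34.4%). Only 1 of the 13 had a wild type range of 1 or more (14.0%). Their summed level was 9.38 to 10.2 on the knockout arrays and 8.66 to 9.83 on the wild type arrays. The part of feeder or immune cells in the members' spread was not tested.

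**Figure D5:**
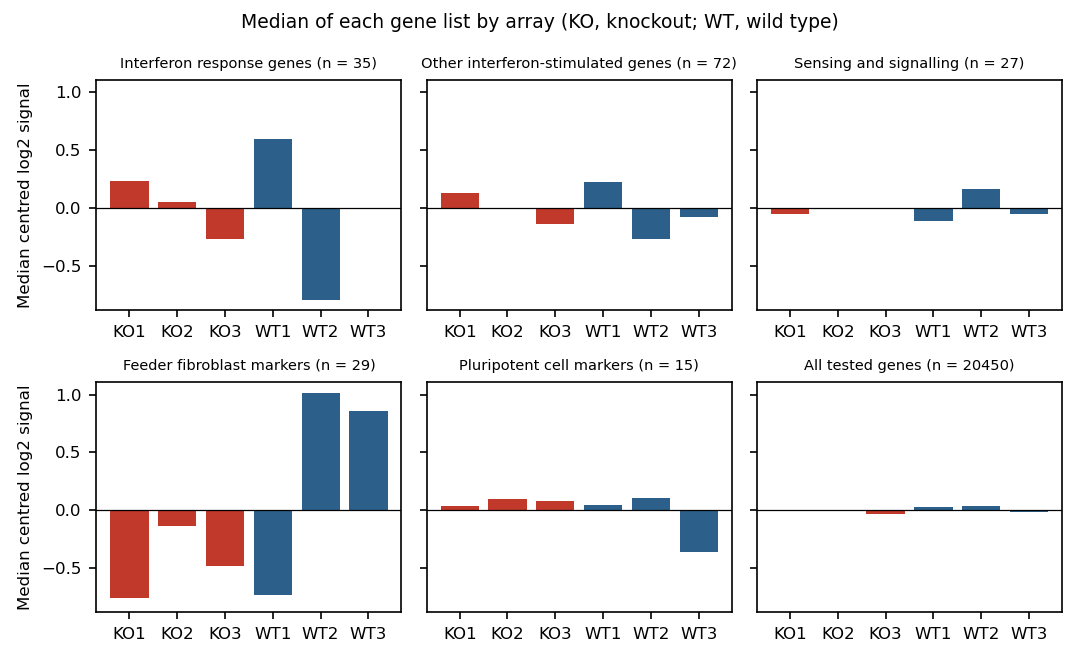
Median log2 signal of each gene list on each array, every gene centred on its mean over the 6 arrays, with knockout arrays (KO1 to KO3) left of wild type arrays (WT1 to WT3) in each panel and bars starting at 0. Interferon response genes are highest on WT1 and lowest on WT2, feeder fibroblast markers are low on WT1 and high on WT2 and WT3, and the medians over all tested genes stay within 0.04 of 0.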

How the data were processed

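Total RNA was labelled with 1 dye and hybridised to 6 Agilent arrays, 3 knockout and 3 wild type. Spot intensity values were background-subtracted and detrended by the authors' Agilent Feature Extraction software, version 10.7.3.1 per the file headers and 10.3.1.1 per the submitters' processing notes. The deposited series table holds log2 values centred per probe, and how they were scaled between arrays was not given. Column medians in that table were -0.02, 0.02 and 0.03 for knockout and 0.02, -0.01 and -0.07 for wild type arrays. It was used as an alternative.

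From the scanner files, control spots and outlier spots were left out, spots of a probe were averaged, and the log2 processed signal minus each array's 75th percentile was tested for probes well above background on at least 3 of 6 arrays. Knockout was compared with wild type in R 4.3.3 with limma 3.58.1 (two-sided, Benjamini-Hochberg over all tested probes, threshold 0.05), after the fit had been tested on simulated data. Signal over background and 3 arrays per genotype limit the precision, so that small differences are not detectable.

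Members and gene lists were chosen with earlier results of these data known. Values on every array are given for the 12 members with the smallest p, the 6 with the widest wild type range and any called, and probes that differ in sign are named. Values of Ifit1, Bst2 and Isg15, outside that rule, were added after they were seen. Of each pathway list the called genes and the 4 smallest p are named. Probe positions are those of the array files (mm9), and promoter windows are RefSeq's on GRCm38.p6. Alternatives were another background correction (normexp), normalization, filter, weights, variance prior, probe summary and value table, the replicate number as a block, and leaving out each array.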

Additional observations from a re-analysis of the deposited data

How the results depend on the processing

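Over all tested probes the number of limma calls depended on the processing. Among the 46 member probes it was 0 or 1. With 0.465% of all tested probes called in the main fit, a list of 46 is too short to show such a dependence. The 33 higher and 91 lower calls became 50 and 131 with quantile normalization, 54 and 177 with a shift to the median, 434 and 406 with array weights, and 33 and 87 with the authors' table. They became 0 and 0 with normexp, without the filter on dim probes, with the filter on all 6 arrays, with a trended and robust prior, and with the replicate block, where 5784, 6514, 5451, 6198 and 5145 probes had an unadjusted p below 0.05. Leaving out 1 array gave 0 to 1409 higher and 0 to 1148 lower calls: 1409 and 1148 without WT2, 203 and 437 without WT1, and 0 otherwise, where the unadjusted counts were 3229 to 4880. Member probes called numbered 0 in every setting run, except 1 higher (Ifitm1) without WT2, giving a range of 0 to 1. Without WT2 15 of 46 member probes had an unadjusted p below 0.05, beside 8830 of all 26647 tested probes. Without WT1 it was 6 of 46, beside 5452 of 26646, so neither count sets the members apart. The members' median difference ran from -0.37 without WT2 to 0.22 without WT1, and it was -0.12 with array weights. The spread, in alternatives added after the data were seen, gave 18 to 24 members with a wild type range of 1 or more under other normalizations and 11 to 21 without 1 wild type array, and 29 or 30 with WT1 above WT2.

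Of 560 pairs of a gene and a setting, 521 kept direction and side of the threshold and 1 passed it. In 38 pairs, from 17 genes, the sign changed, and none of these differences was called. Sign changes came both from settings that kept every array and from leaving out 1 array, and their cause was not tested. With array weights Gbp2 gave -0.073, Gbp3 -0.47, Mx2 -0.039, Oas1a -0.31, Oas2 -0.41, Rtp4 -0.18, Zbp1 -0.12 and Stat2 0.086. With normexp Gbp3 gave -0.11 and Oas1a -0.049, with the shift to the median Oas1a gave -0.045, and with quantile normalization Stat2 gave 0.014. The mean over a gene's probes gave -0.20 for Ifnar1 and -0.65 for Xaf1. Leaving out 1 array, differences ran from -0.41 to 0.17 for Adar, -0.13 to 0.49 for Gbp2, -0.86 to 0.68 for Gbp3, -1.02 to 0.089 for Ifit1, -0.30 to 1.42 for Irf7, -0.16 to 0.76 for Mx2, -0.63 to 0.80 for Oas1a, -0.79 to 0.96 for Oas2, -0.069 to 1.21 for Oasl1, -0.39 to 1.55 for Oasl2, -0.68 to 0.27 for Parp9, -0.67 to 1.38 for Rtp4, -0.13 to 0.10 for Stat2, -0.42 to 1.73 for Usp18 and -0.37 to 0.73 for Zbp1. The deviations of same-numbered arrays correlated at 0.16, 0.23 and -0.14 over probes, and those of differently numbered arrays at -0.32 (KO1 and WT2) to 0.21 (KO1 and WT3). So few values cannot tell whether same-numbered arrays were paired. The replicate block left the members' median at 0.10 with 0 called. The slide could not be used as a block, since each genotype lay on its own slide, and that alternative was not run.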
